A study of Rattus norvegicus with 2 samples.

Results

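Leukocytes that were not dividing and held no UMI of Cd3e, Cd3g, Cd3d or Ccl5 were taken from 2 single-cell libraries of rat jejunal epithelium. Other genes of the T-cell receptor complex, such as Cd247, were not limited. A barcode, which stands for 1 droplet, was kept if it held more than 1000 UMIs (unique molecular identifiers, 1 for each captured transcript), at most 40% of them mitochondrial, and at least 1 UMI of Ptprc, which encodes the pan-leukocyte surface phosphatase CD45. It was also required to hold 0 UMIs of Cd3e, Cd3g, Cd3d and Ccl5, at most 10 UMIs of Epcam, Krt8, Krt18, Krt19 and Krt20 together, and at most 1 UMI of Mki67 and Top2a together. These rules kept 223 of 20285 barcodes, 14 of 12033 in rat 1 and 209 of 8252 in rat 2. The counts of those 12 genes, the total and the mitochondrial share chose the members, so their values are given below as a description.

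Both animals were adult male Sprague Dawley rats, labelled 6 to 8 weeks old and 180 to 200 g, which had been fasted overnight. Epithelium of the proximal jejunum was released with EDTA and dispase, strained and loaded for 3′ sequencing, 1 library for each rat. There was 1 condition and no treated group, and the leukocytes were not sorted but came along with the epithelium. Comparisons below are therefore between kinds of barcodes within a rat, and none of them carries a test, since 1 library stands for each rat and rat 1 held too few members.

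B cells recognise antigen through a surface immunoglobulin whose signal is passed on by CD79a and CD79b, and they present peptides on MHC class II molecules, which need the invariant chain CD74. After activation in the germinal centres of mucosal lymphoid tissue they mutate and switch their immunoglobulin genes and can become plasma cells, which secrete immunoglobulin joined by the J chain. Intestinal macrophages and dendritic cells also carry MHC class II, take up material through Fc and complement receptors, and signal through the adaptors Tyrobp and Fcer1g, which natural killer cells share.

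The libraries held 99986348 UMIs in rat 1 and 66469907 in rat 2, and 28 barcode sequences occurred in both, none of them a member. Of the barcodes within the limits on total and mitochondrial UMIs, members made up 0.15% of 9345 in rat 1 (95% interval 0.0819 to 0.251%) and 3.78% of 5523 in rat 2 (3.30 to 4.32%). Intervals here are exact binomial for shares and exact Poisson for counts, and cover counting error only. Members had a median of 2440.5 UMIs in rat 1 (range 1001 to 5055) and 2429 in rat 2 (1025 to 45223). The same libraries held 670 and 1197 T-cell barcodes (median 1792.5 and 3572 UMIs) and 5201 and 1790 epithelial barcodes (median 11037 and 14964.5 UMIs), which serve as background. Rat and processing version cannot be told apart, as each library was counted with its own release of the software.

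Many members held few Ptprc UMIs. In rat 1, 10 of 14 members held exactly 1 Ptprc UMI, and in rat 2, 58 of 209 did. Just outside this limit lay 589 barcodes of rat 2 with 0 Ptprc UMIs, of which 455 had over 20% hemoglobin UMIs. Of the 51 barcodes of rat 2 left out for 1 UMI of Cd3e, Cd3g, Cd3d or Ccl5, 26 carried B-cell markers and 13 T or NK markers by the lists below. The cycling limit left out 6 barcodes of rat 2, all with B-cell markers, while 8 members held the 1 UMI it allows. Near the epithelial limit, 5 members of rat 2 held 6 to 10 UMIs and no barcode held 11 to 15, and in rat 1 there were 2 and 1. Close to the depth limit, 7 members of rat 2 lay within 200 UMIs above it and 6 barcodes within 200 UMIs below.

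Hemoglobin ran through the data as a second signal. Over 20% of UMIs came from Hba-a1, Hba-a2, Hba-a3 and Hbb together in 4 members of rat 1 and 11 of rat 2. Every hemoglobin share in this text counts these genes only. LOC103694857, named next, was left out of the shares, and its UMIs would raise them. Among genes with at least 20 UMIs in the members of each rat, 157 in all, the 15 with the highest ratio over epithelial barcodes included the hemoglobin genes Hbb, Hba-a1, Hba-a2, Hba-a3 and LOC103694857 and the heme synthesis enzyme gene Alas2. Levels are given as CPM, the UMIs of a gene per 1000000 UMIs summed over a group of barcodes. The members of rat 1 held 130794 CPM of Hba-a1 and the members of rat 2 held 22103 CPM, while epithelial barcodes held 450 and 1286 CPM. The others of the 15 were Ptprc itself, the unnamed AABR07034739.1 and AABR07060872.1, the signalling adaptor Tyrobp, the actin regulator Coro1a, Ifitm1, Bst2, Cd7 and Art2b. Tyrobp, Coro1a, Ifitm1, Cd7 and Art2b were higher still in the T-cell barcodes of rat 2, and the same held in rat 1 except for Tyrobp, with 2431 CPM in members and 1250 CPM in T-cell barcodes. AABR07034739.1 and AABR07060872.1, gene identifiers that no table used here pairs with another name, were low in T-cell barcodes. AABR07034739.1 measured 872 and 1735 CPM in the members of rats 1 and 2 against 8.68 and 25.6 CPM in T-cell barcodes. AABR07060872.1 measured 1031 and 90010.1 CPM in members against 10.3 and 50.7 CPM in T-cell barcodes.

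Of the markers named for these cells, Cd74 and Cd79b separated the members of rat 2 from both backgrounds, but Cd79b was rare in rat 1. With every barcode thinned to 1000 UMIs, Cd79b was found in 60.8% of the members of rat 2 (53.8 to 67.4%), in 0.251% of T-cell barcodes and in no epithelial barcode. Its level was 1187 CPM in members, 2.86 CPM in T-cell barcodes and 0.398 CPM in epithelial barcodes of rat 2. In rat 1 the members reached 132 CPM, all of it from 2 barcodes. Cd74, the invariant chain, measured 15019.8 CPM in the members of rat 2, 165 CPM in T-cell barcodes and 504 CPM in epithelial barcodes. In rat 1 it measured 2934 CPM in members and 767 CPM in epithelial barcodes. The markers thus fitted the name in rat 2, while 4 of the 14 members of rat 1 had 41.9 to 58.5% hemoglobin UMIs and at most 1 Cd74 UMI.

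Members were then sorted by marker lists into B-marked (among them Cd79b, Ms4a1 and Pax5), myeloid-marked (among them Csf1r, C1qa, Aif1, Cd68 and Mrc1) and T/NK-marked (among them Cd7, Gzma, Nkg7, Lck and Cd8a), each with at least 2 UMIs of its list and more than of the other lists. In rat 2, 138 of 209 members were B-marked, which is 66.0% (59.2 to 72.4%). A further 29 were myeloid-marked, 13.9% (9.49 to 19.3%), and 23 were T/NK-marked, 11% (7.11 to 16.1%). The other members of rat 2 were 18 unmarked barcodes (8.61%, 5.18 to 13.3%) and 1 tie. In rat 1, 2 of 14 members were B-marked (14.3%, 1.78 to 42.8%), 7 were T/NK-marked (50%, 23.0 to 77.0%) and 5 were unmarked (35.7%, 12.8 to 64.9%). No member of rat 1 was myeloid-marked, where 0 of 14 leaves a share of up to 23.2% within the interval.

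The rats differed in how many B-marked barcodes they gave. Per 100 T-cell barcodes, rat 1 held 0.299 B-marked members and rat 2 held 11.5. As a share of all barcodes within the depth and mitochondrial limits, B-marked members made up 0.0214% in rat 1 (0.00259 to 0.0773%) and 2.50% in rat 2 (2.10 to 2.95%). These intervals do not overlap, but with 1 library a rat the difference has no replicate check. Applied to T-cell barcodes, the same lists put 99.7% of 670 in rat 1 and 99.5% of 1197 in rat 2 in the T/NK-marked class. Applied to epithelial barcodes of rat 2, they put 0.0559% in the B-marked, 2.29% in the myeloid-marked and 9.78% in the T/NK-marked class.

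**Figure D1:**
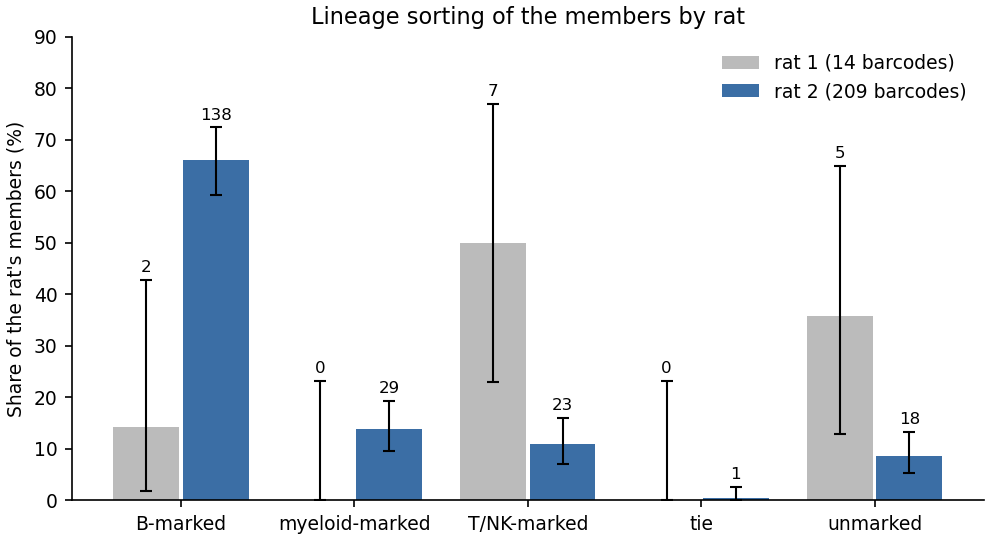
Share of each rat's members (y axis, %) in each marker class (x axis), with 95% exact binomial intervals and the number of barcodes above each bar. B-marked barcodes made up 138 of 209 members in rat 2 and 2 of 14 in rat 1.

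The B-marked barcodes of rat 2 carried many B-cell transcripts beyond those of the list. Cd79b, the signalling partner of the B-cell receptor and a gene of the list, was found in 137 of 138 with a median of 5 UMIs (0 to 26). Of the genes that played no part in the sorting, Cd74 was found in all 138 with a median of 48 UMIs (8 to 119). RT1-Da, the alpha chain of the main rat class II molecule, was found in 136 with a median of 19 (0 to 50). Ighm, the heavy chain of IgM, was found in 135 with a median of 9 and a maximum of 6130. AABR07060872.1 followed it, in 133 barcodes with a median of 20.5 and a maximum of 35495. Fcmr, the Fc receptor for IgM, was found in 125. Of the 138, 37 rested on Cd79b alone, although Cd79b was found in 0.251% of thinned T-cell barcodes.

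The 2 B-marked barcodes of rat 1 showed the same genes at like depth. They held 2468 and 2413 UMIs in all. Cd79b gave 2 and 3 UMIs, Fcmr 3 and 1, Ighm 9 and 1, and AABR07060872.1 18 and 10. Cd74 gave 45 and 11 UMIs, RT1-Da 26 and 16, and AABR07034739.1 6 and 10. All of these values lay within the range of the B-marked barcodes of rat 2.

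Ighm could not be read as a mark of B-marked barcodes alone. With barcodes thinned to 1000 UMIs, an Ighm UMI was found in 93.5% of B-marked, 6.90% of myeloid-marked and 38.6% of T-cell barcodes of rat 2, and in 0.615% of its epithelial barcodes. In rat 1, 18.8% of thinned T-cell barcodes held one, although that library had 2 B-marked members. The ratio to AABR07060872.1 differed as well. T-cell barcodes of rat 2 held 2483 Ighm and 230 AABR07060872.1 UMIs, whereas B-marked barcodes held 14126 and 66925. In epithelial barcodes AABR07060872.1 was the higher, at 9.09 against 5.21 CPM. The counts of the pair were thus not in 1 ratio across the barcode types of a library, and the source of the Ighm UMIs in T-cell barcodes was not tested.

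**Figure D2:**
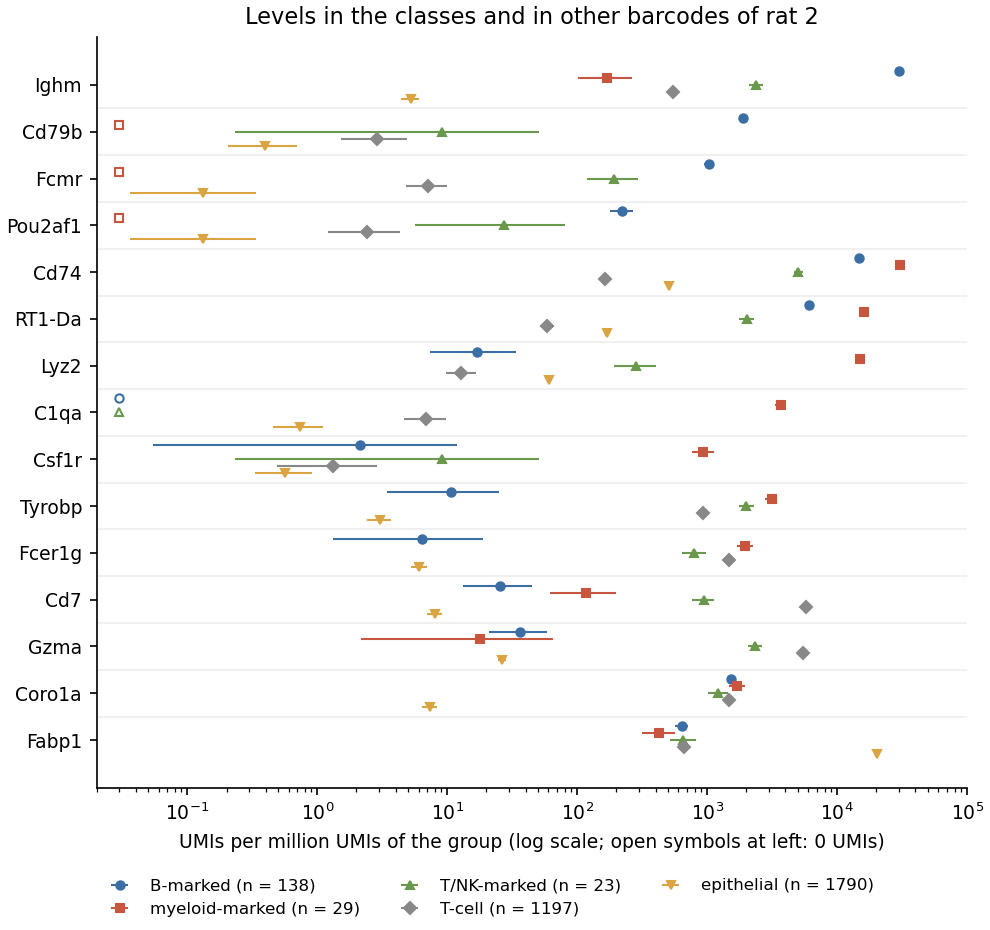
Levels of 15 genes (CPM, log axis, with 95% exact Poisson intervals) in the 3 marker classes and in T-cell and epithelial barcodes of rat 2, where open symbols stand for 0 UMIs. Ighm and Fcmr were highest in B-marked barcodes and Lyz2 in myeloid-marked ones, while Coro1a lay close together in all 4 leukocyte groups. Cd79b, Csf1r, C1qa, Cd7 and Gzma belong to the lists that sorted the classes, so their levels there are a description.

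B-marked and myeloid-marked members of rat 2 were compared gene by gene on summed UMIs, with a gene called when its CPM differed at least 4-fold and it had at least 20 UMIs in both classes together. Folds against a class with 0 UMIs are lower bounds, computed with 3 UMIs in that class. Of 3309 genes, 191 (5.77%) were called higher in B-marked and 228 (6.89%) higher in myeloid-marked barcodes, with a median log2 ratio over all genes of -0.00. Weighting every barcode equally, a choice made after seeing the data, gave 339 and 207. The genes of the sorting lists are left out of the list counts that follow.

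Genes of B-cell receptor signalling stood on the B-marked side. Of 17 genes compared, 9 were called higher in B-marked barcodes and none in myeloid-marked ones, with a median log2 ratio of 2.11. Fcmr was at least 38.6-fold higher, with 485 UMIs in 125 of 138 B-marked barcodes and 0 in the 29 myeloid-marked ones. Cr2, the complement receptor of the B-cell co-receptor complex, was at least 12.2-fold higher (153 UMIs against 0). Fcer2, the low-affinity IgE receptor of mature B cells, gave 80 UMIs against 0, at least 6.37-fold, and the adaptor Blnk gave 95 against 0, at least 7.56-fold. Bank1, a scaffold of receptor signalling, was 4.98-fold higher (2.22 to 13.8), Fcrla 4.32-fold (2.42 to 8.49) and Cd37 4.64-fold (2.81 to 8.22). The kinases that myeloid cells also use were not called. Lyn measured 64 UMIs against 26, a B-marked over myeloid-marked ratio of 0.588, and Syk 55 against 18, a ratio of 0.730.

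The B-cell transcription factors followed, with 6 of 11 compared called higher in B-marked barcodes and 1 in myeloid-marked ones, at a median log2 ratio of 2.13. Pou2af1, the co-activator of octamer-driven immunoglobulin genes, was at least 8.20-fold higher, with 103 UMIs in 55 B-marked barcodes against 0. Spib, an Ets factor, was at least 4.70-fold higher (59 UMIs against 0). Ikzf3 gave 67 UMIs against 1, a ratio of 16.0 (2.78 to 641), Bach2 38 against 1, a ratio of 9.08 (1.53 to 368), and Tcf3 55 against 3, a ratio of 4.38 (1.42 to 21.9). Spi1, the Ets factor PU.1 of myeloid and B cells, was the gene called on the myeloid-marked side, 5.66-fold higher there (3.89 to 8.30). Irf8, used in both lineages, did not differ within its interval, with a ratio of 1.09 (0.699 to 1.78). However, 1 myeloid-marked barcode held 19 Irf8 UMIs. Of the groups described below, the C1q-positive barcodes gave 4 and those with under 2 C1q and at most 1 Cd74 UMI gave 1.

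Receptors for survival and help were higher in B-marked barcodes as well. In the germinal centre and activation list 3 of 5 genes compared were called, at a median log2 ratio of 2.46. Tnfrsf13c, the receptor for the survival factor BAFF, was 11.4-fold higher (4.80 to 35.3), with 238 UMIs in 99 B-marked barcodes. Cd83, an activation marker, was 5.79-fold higher (3.34 to 11), and Cd40, the receptor for T-cell help, 5.49-fold (2.07 to 20.6). Of the homing and chemokine receptor genes, 3 of 13 were called on each side, at a median log2 ratio of 0.84. Cd69 gave 92 UMIs against 3, a ratio of 7.33 (2.43 to 36.2), and Gpr18 50 against 2, a ratio of 5.97 (1.57 to 50.7). S1pr1, the receptor that guides lymphocytes out of tissue, gave 43 against 0, at least 3.42-fold and so below the 4-fold rule. On the other side stood Ccr1, 41.9-fold higher in myeloid-marked barcodes (10.2 to 369), Itgae, 20.9-fold (7.87 to 70.0), and its partner Itgb7, 4.93-fold (2.45 to 10.0).

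MHC class II genes were found in both classes and were higher per UMI in myeloid-marked barcodes, though short of 4-fold. None of 9 genes compared was called, and their median log2 ratio was -1.41. Cd74 was 2.08-fold higher in myeloid-marked barcodes (2.00 to 2.17), RT1-Ba 2.83-fold (2.61 to 3.07), RT1-Da 2.66-fold (2.51 to 2.83) and RT1-Db1 2.74-fold (2.58 to 2.91). Within the myeloid-marked class, however, Cd74 was found in 23 of 29 barcodes and ranged from 0 to 710 UMIs, while every B-marked barcode held at least 8. RT1-DOa and RT1-DOb, which tune peptide loading, pointed the other way within wide intervals, at 1.30-fold (0.854 to 2.07) and 1.46-fold (0.741 to 3.19) in favour of B-marked barcodes. Ciita, the master regulator of class II genes, gave 45 UMIs against 7, a ratio of 1.54 (0.687 to 4.04).

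The macrophage list gave the largest number of myeloid-marked calls. Of 16 genes compared, 11 were called higher in myeloid-marked barcodes and 1, Apoe, in B-marked ones, at a median log2 ratio of -4.05. Lyz2, the myeloid lysozyme, was found in all 29 myeloid-marked barcodes with 2 to 357 UMIs (median 12) and in 3 of 138 B-marked ones, and was 881-fold higher per UMI (446 to 2045). Tyrobp was 293-fold higher (124 to 908), with 1 to 51 UMIs in each myeloid-marked barcode. Fcer1g, the common chain of Fc receptors, gave 219 UMIs against 3, and Fcgr2a, an IgG receptor, 34 against 1. Cst3, a cysteine protease inhibitor, was 114-fold higher (71.2 to 194). Fcgr1a, the high-affinity IgG receptor, gave 0 UMIs in the B-marked class and was at least 27.9-fold higher in myeloid-marked barcodes. The lysosomal proteases Ctsb and Lgmn were 7.10-fold (4.54 to 11.3) and 6.65-fold (3.49 to 13.0) higher.

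Inflammatory and dendritic cell genes were called on the same side from fewer barcodes. Il1b gave 99 UMIs against 2 and S100a4 40 against 1, and these were the 2 calls among 3 genes compared of the monocyte and neutrophil list, whose median log2 ratio was -7.39. A single barcode held 61.6% of the Il1b UMIs. Of 5 dendritic cell genes compared, 3 were called higher in myeloid-marked barcodes, at a median of -2.84. Itgax, the integrin CD11c, was at least 34.9-fold higher (25 UMIs against 0), Sirpa 7.18-fold (4.41 to 11.9), and Itgae, listed with the homing genes too, completes the 3. Of the Itgax UMIs, 20 lay in 9 of the 10 myeloid-marked barcodes with under 2 C1q and at most 1 Cd74 UMI, described below. A single barcode with under 2 C1q UMIs and over 1 Cd74 UMI held 4, so the Itgax call does not mark dendritic cells here. Tnfsf13, which encodes the B-cell and plasma cell factor APRIL, gave 21 UMIs in 9 myeloid-marked barcodes against 2, a ratio of 44.0 (10.7 to 387). It was the 1 call among 4 cytokine genes compared, at a median of -0.43.

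The genes furthest apart outside the lists carried some of these themes and some not. On the B-marked side they included Pxdc1 (132 UMIs against 1, 31.5-fold, 5.56 to 1255), the transcription factor genes Ets1 (111 against 1, 26.5-fold, 4.66 to 1057) and Id3 (93 against 1). On the myeloid-marked side they included the protease inhibitor Slpi (358 against 0, at least 499.6-fold), Pla2g7 (97 against 1), Ifitm1 (309 against 5, 259-fold, 110 to 802) and Il22ra2, the soluble antagonist of IL-22 (160 against 0, at least 223-fold). All 358 Slpi UMIs came from 1 barcode and the Il22ra2 UMIs from 5, so these values describe few cells. Hbb and Hba-a1 also stood among the genes higher in B-marked barcodes, 42.8-fold and 40.8-fold, and Hba-a2 at 23.6-fold. These came from 2 B-marked barcodes with over 20% hemoglobin, and without such barcodes the log2 ratios turned to -0.37, -0.16 and -0.67.

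Over all 3309 genes, 5.77% were called on the B-marked and 6.89% on the myeloid-marked side. The lists of genes common to leukocytes and of epithelial genes were too short to tell their counts from these shares. Of genes common to leukocytes, 1 of 16 compared was called on each side, Cd37 and the adaptor Fyb1, at a median log2 ratio of -0.24. Among epithelial genes none of 14 was called, at a median of -0.05, and among dissociation and early response genes 1 of 12 was, the phosphatase Dusp1 in myeloid-marked barcodes, at a median of -0.03. The epithelial UMIs counted for the rule had a median of 1 in both classes, with maxima of 8 in B-marked and 6 in myeloid-marked barcodes. Apoa1, an enterocyte transcript, was found in 136 of 138 B-marked and in all 29 myeloid-marked barcodes, with 735 and 165 UMIs. Of 5 cell cycle genes 1 was called, Stmn1, in B-marked barcodes, at a median of 0.53. The innate lymphoid list had 1 gene to compare, Ahr, which was higher in myeloid-marked barcodes (20 UMIs against 2), and the cytotoxic list had 3, of which Cst7 and Runx3 were higher there, at a median of -2.17. The 3 hemoglobin genes compared are those described above, at a median of 5.35, and no gene of the mast cell, basophil and eosinophil list or of the stromal list reached 20 UMIs.

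Immunoglobulin and plasma cell transcripts were concentrated in 3 B-marked barcodes of rat 2. These held 10 or more Jchain UMIs, a limit set after the values were seen. Their totals were 15814, 30612 and 45223 UMIs, 19.5% of all UMIs of the 138, with only 0.977 to 2.81% mitochondrial. They held 98.3% of the class's Jchain UMIs, 89.7% of its Ighm UMIs and 95.7% of its AABR07060872.1 UMIs. Jchain, the joining chain of secreted IgM and IgA, gave 41, 54 and 77 UMIs in them and 3 UMIs in the other 135 B-marked barcodes.

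In these 3 barcodes most transcripts were immunoglobulin or the unnamed gene. Ighm made up 10.9 to 20.3% and AABR07060872.1 49.8 to 78.5% of each barcode's UMIs. Against the B-marked barcodes without Jchain-rich ones or Apoe UMIs (123, described below), Ighm was 37.4-fold higher per UMI (35.2 to 39.7) and AABR07060872.1 90.3-fold (86.7 to 94). In the other 135 B-marked barcodes Ighm ranged from 0 to 60 UMIs and AABR07060872.1 from 0 to 79, so the groups did not overlap. Without the 3 barcodes the B-marked level of Ighm was 3854 CPM (3659 to 4057) instead of 30109 CPM, and its log2 ratio over myeloid-marked barcodes 4.51 instead of 7.47.

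The same barcodes were high in secretory machinery and low in RT1-Da, an MHC class II gene. Mzb1, a chaperone of immunoglobulin assembly, gave 29 to 55 UMIs and was 9.68-fold higher than in the 123 (6.91 to 13.8). The disulfide isomerase Txndc5 was 22.5-fold higher (12.7 to 42.7) and the signal peptidase subunit Sec11c 21.0-fold (11 to 44.0). Tnfrsf17, the plasma cell receptor BCMA, gave 1, 4 and 5 UMIs, and Ccr10, the homing receptor of mucosal antibody-secreting cells, 19 UMIs over the 3. By contrast RT1-Da gave 4 UMIs in 1 of the 3, 184-fold lower than in the 123 (71.6 to 674), Cd74 20 to 65 UMIs, 13.6-fold lower (11.4 to 16.4), and Cd79b 5 to 9 UMIs, 10.8-fold lower (6.85 to 18.0). Fcmr, Cr2, Fcer2 and Cd83 gave 0 UMIs. Per-UMI levels in these barcodes are lowered for every other gene by the share that Ighm and AABR07060872.1 take. With both left out of the totals, an alternative chosen after seeing the data, Cd79b was 1.78-fold lower (1.13 to 2.98), Cd74 2.25-fold lower (1.89 to 2.70) and RT1-Da 30.3-fold lower (11.8 to 111). As counts, Cd79b had a median of 5 UMIs in both groups, and Cd74 a median of 41 in the 3 and 48 in the 123. Mzb1 was then 58.6-fold higher (41.9 to 83.4). Of 5 plasma cell genes compared, 3 were called over myeloid-marked barcodes, at a median log2 ratio of 3.80, and 84.1% of the Txndc5 and 58.3% of the Mzb1 UMIs behind 2 of those calls came from the 3 barcodes.

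**Figure D3:**
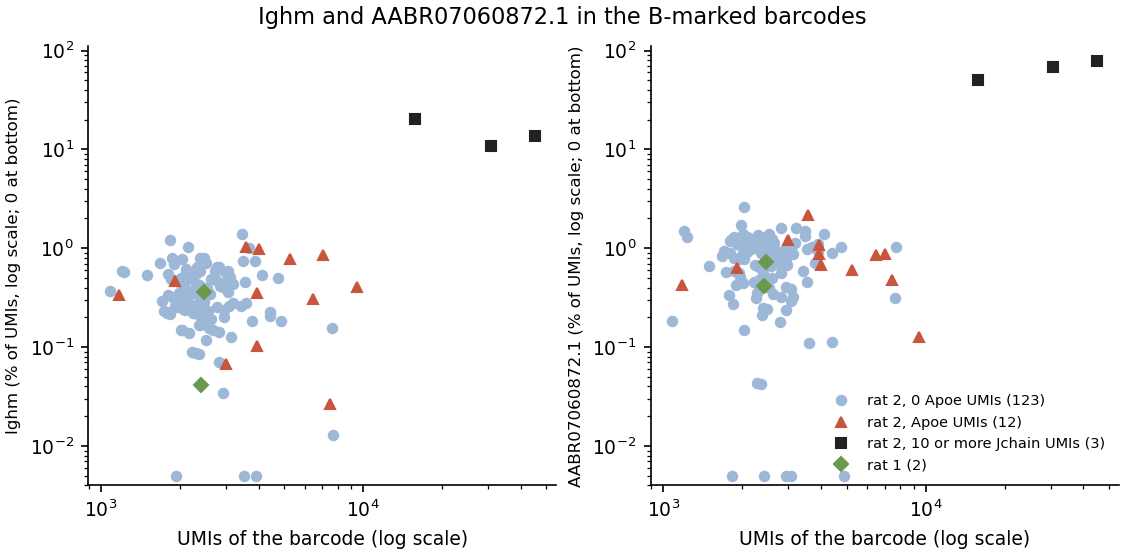
Ighm (left) and AABR07060872.1 (right) as a percentage of UMIs (y axis, log) against total UMIs (x axis, log) for each B-marked barcode of both rats, with 0 drawn at the bottom. The 3 Jchain-rich barcodes stand apart at 15814 to 45223 UMIs, with 10.9 to 20.3% Ighm, while the 12 with Apoe UMIs lie among the others.

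Another group of B-marked barcodes carried germinal centre transcripts. Apoe, a lipid carrier known from macrophages, was found in 12 of the 138 B-marked barcodes of rat 2, with 1 to 43 UMIs (median 12), and in no myeloid-marked barcode. Thinned to 1000 UMIs, 7.97% of B-marked barcodes held an Apoe UMI, 0.112% of epithelial barcodes did and none of the 1197 T-cell barcodes did. These 12 were picked by Apoe after its values were seen. They had a median of 3969.5 UMIs and 1473 genes, against 2391 UMIs and 985 genes in the 123 that held neither Apoe nor 10 Jchain UMIs. A UMI of Rgs13 or Mef2b was found in 10 of the 12 and in 3 of the 123.

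Rgs13 and Mef2b are both known from germinal centre B cells. Rgs13, a regulator of chemokine receptor signalling, gave 23 UMIs in 9 of the 12 and 3 in the 123, a ratio of 43.0 per UMI (13.0 to 223). Mef2b, a transcription factor that acts upstream of Bcl6, gave 16 UMIs in 8 against 0, at least 29.9-fold. The 12 held 88.5% of the class's Rgs13 and 100% of its Mef2b UMIs. Neil1, a DNA glycosylase, was 18.7-fold higher (7.23 to 56.8), and Hmgb2 and Stmn1, which rise in dividing cells, were 9.55-fold (6.50 to 14.2) and 9.91-fold (4.82 to 21.3) higher, although 46 of the 75 Hmgb2 UMIs came from 1 barcode. Bcl6, the repressor that defines the germinal centre state, was sparse at 5 UMIs in 4 of the 12, with a ratio of 3.11 whose interval included 1 (0.820 to 10.3).

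Receptors of recirculating B cells were low in the same 12 barcodes. Ccr6 gave 1 UMI against 193 in the 123, 34.4-fold lower (6.11 to 1367). Bank1 was 7.26-fold lower (2.43 to 35.7), Cxcr4 5.03-fold lower (2.77 to 10.2), Cd40 3.93-fold lower (1.48 to 14.7) and Fcmr 1.83-fold lower (1.34 to 2.57). An S1pr1 or Gpr183 UMI was found in none of the 12 and in 43 of the 123, although the 12 were deeper. Ighm and AABR07060872.1 differed little, at ratios of 1.28 (1.11 to 1.46) and 0.974.

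The 6 B-marked barcodes that the cycling limit had left out carried the same transcripts. They held 4409 to 21367 UMIs in all and 4 to 93 UMIs of Mki67 and Top2a. Apoe gave 84 UMIs in 4 of them, Mef2b 22 in 6, Bcl6 13 in 6 and S1pr2, a receptor that keeps B cells in the germinal centre, 11 in 5, and Ccr6 gave 0. B-marked barcodes left out by 2 of the other limits held Apoe UMIs too. The 28 with 0 Ptprc UMIs gave 36 Apoe UMIs in 2 barcodes, and the 26 with 1 UMI of a T-cell gene gave 83 Apoe UMIs in 4.

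Against T/NK-marked members of rat 2, B-marked barcodes differed in 116 genes called higher (3.54%) and 115 called lower (3.51%) of 3281 compared, with a median log2 ratio of -0.09. Equal weighting gave 191 and 107, and leaving Ighm and AABR07060872.1 out of the totals gave 145 and 94, both chosen after seeing the data. B-cell receptor signalling genes were called higher in 7 of 16 compared (median log2 ratio 1.84), B transcription factors in 3 of 11 (1.57), germinal centre and activation genes in 4 of 6 (2.73), plasma cell genes in 2 of 5 (1.04) and MHC class II genes in 3 of 9 (1.69), and no gene of these 5 lists was called lower. Cr2 gave 153 UMIs against 2, Fcer2 80 against 1 and Cd83 315 against 5, a ratio of 14.8 (6.26 to 45.8). Ciita gave 45 against 1. Ighm was 12.6-fold higher (11.2 to 14.3), but 1 T/NK-marked barcode held 195 of the 262 Ighm UMIs of its class. Outside the lists B3gnt5 (129 against 1), Gsta6 (75 against 1), Ublcp1 (67 against 1), Ppdpf (133 against 2) and Gadd45g (116 against 2) were among the 10 named genes furthest apart.

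On the T/NK-marked side, the 10 named genes furthest from B-marked barcodes included Ifitm1 (234-fold, 99.0 to 726), the ubiquitin ligase Nedd4 (47 UMIs against 1), Tyrobp (188-fold, 79.3 to 584), Fcer1g and the granule protease Mcpt10 (68.3-fold, 25.4 to 258). Of the cytotoxic list 3 of 4 genes compared were called, Cd244, Ctsw and Runx3, at a median log2 ratio of -3.57. Both innate lymphoid genes compared, Ahr and Id2, were called as well, at a median of -4.71. Of 11 macrophage genes 5 were called higher in T/NK-marked barcodes and 1, Apoe, in B-marked ones, at a median of -1.30. Homing genes divided with 2 of 12 on each side, at a median of 0.38, and among 5 dendritic cell genes Siglech and Bst2 were called, at a median of -1.70. Of the 2 monocyte genes compared, S100a6 was called in B-marked and Il1b in T/NK-marked barcodes. Lta, the lymphotoxin alpha gene, was the 1 call among 3 cytokine genes, with 23 UMIs against 1 in favour of B-marked barcodes. Among 13 early response genes Fosb and Egr1 were called in B-marked barcodes, at a median of 1.15, and Kdr was the 1 stromal list gene compared and called. No epithelial gene of 14 and no cell cycle gene of 6 was called, at medians of 0.04 and -0.68, and 1 of 16 common leukocyte genes was, again Fyb1, at a median of 0.09. The 4 erythroid genes were called higher in T/NK-marked barcodes, at a median of -3.17, and 3 of the 23 had over 20% hemoglobin.

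The myeloid-marked barcodes of rat 2 were not uniform. All 29 held Lyz2, Tyrobp, Fcer1g and Aif1 UMIs, whereas Csf1r, the growth factor receptor of macrophages, was found in 22 and RT1-Da in 18. Aif1 and Csf1r belong to the list that sorted these barcodes, so their counts are a description. None held a UMI of Fcmr, where a count of 0 in 29 leaves a share of up to 11.9% within the 95% interval. Cd79b and Ms4a1 were at 0 too, but the sorting kept the UMIs of their list below those of the myeloid list. The C1q genes split the class, with 2 or more UMIs in 10 barcodes, exactly 1 in 1 and 0 in 18. Those below 2 (C1q-low) were split again by Cd74, with 9 above 1 UMI (Cd74-positive) and 10 at 0 or 1 (Cd74-low). Both splits were made after the values were seen, and the genes they use are a description.

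The 10 C1q-positive barcodes held 8 to 82 UMIs of C1qa, the complement component made by tissue macrophages, and 26 to 358 of Cd74. Their totals ranged from 1190 to 9739 UMIs, with a median of 2555. Csf1r gave 70 UMIs and was found in all 10. Ms4a7, a macrophage membrane protein, gave 66 UMIs in 9, Acp5, the tartrate-resistant phosphatase, 257 in 10, Lgmn 22 in 8 and the chemokine gene Ccl24 22 in 6. Cd5l, an apoptosis inhibitor of macrophages, gave 67 UMIs, of which 95.5% lay in 1 barcode. Cd163, the hemoglobin scavenger receptor, was at 0, and the mannose receptor gene Mrc1 gave 2 UMIs.

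The 10 C1q-low, Cd74-low barcodes were smaller, with 1087 to 2269 UMIs and a median of 1514. C1qa, C1qb and C1qc were at 0 in them, and Cd74 gave 4 UMIs in 4. Lyz2 gave 7 to 29 UMIs in each and Tyrobp 5 to 19, while RT1-Da and Cd68, a lysosomal glycoprotein, were at 0. Itgax was found in 9 of them with 20 UMIs. Per UMI, the IL-17 receptor gene Il17ra was 48.2-fold higher than in the C1q-positive barcodes (7.83 to 1987), with 23 UMIs in all 10. Gas6, the ligand of the TAM receptors that take up dying cells, was 30.7-fold higher (15.1 to 72.7) and Srgn, the granule proteoglycan serglycin, 32.9-fold (14.5 to 91.8). Alox5ap, needed for leukotriene synthesis, gave 41 UMIs in 9 and 0 in the C1q-positive barcodes, at least 28.7-fold. The eotaxin receptor gene Ccr3 gave 13 UMIs in 6 and the granulocyte factor gene Cebpe 14 in 6. Granule protein genes of eosinophils and neutrophils were at 0 (Epx, Prg2, S100a8, S100a9), as were Siglec5, Gata2 and Il1rl1. Csf1r and Fcgr1a, genes of the myeloid and macrophage lists, gave 10 UMIs in 7 and 9 UMIs in 4 of the 10. Csf3r, also of the myeloid list, gave 1 UMI. These barcodes thus held genes that granulocytes use, without the granule proteins named above, beside genes of the macrophage list. No cell type name is given to them.

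The 9 C1q-low, Cd74-positive barcodes were the deepest, at 2390 to 13297 UMIs with a median of 6084. A C1qb UMI was found in 1 of them. Cd74 ranged from 8 to 710 UMIs and RT1-Da was found in 8 of them. They held different genes in different barcodes. Cst3 gave 474 UMIs in 5, S100a4 39 UMIs in 3 (11, 14 and 14), and Clec10a, a lectin of type 2 conventional dendritic cells, 17 in 4. A barcode of 10731 UMIs held the 6 Xcr1 and 2 Clec9a UMIs, markers of type 1 conventional dendritic cells, together with 19 Irf8, 452 Cd74 and the 358 Slpi UMIs. Another, of 5279 UMIs, held 29 Fn1 and 24 Fcnb UMIs, both known from monocytes. Ccr7, the receptor of migrating dendritic cells, was at 0. Il22ra2 gave 80 UMIs in 3 of the 9, and its 5 positive barcodes in the class held 4 to 55 UMIs of it beside 77 to 357 of Lyz2.

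**Figure D4:**
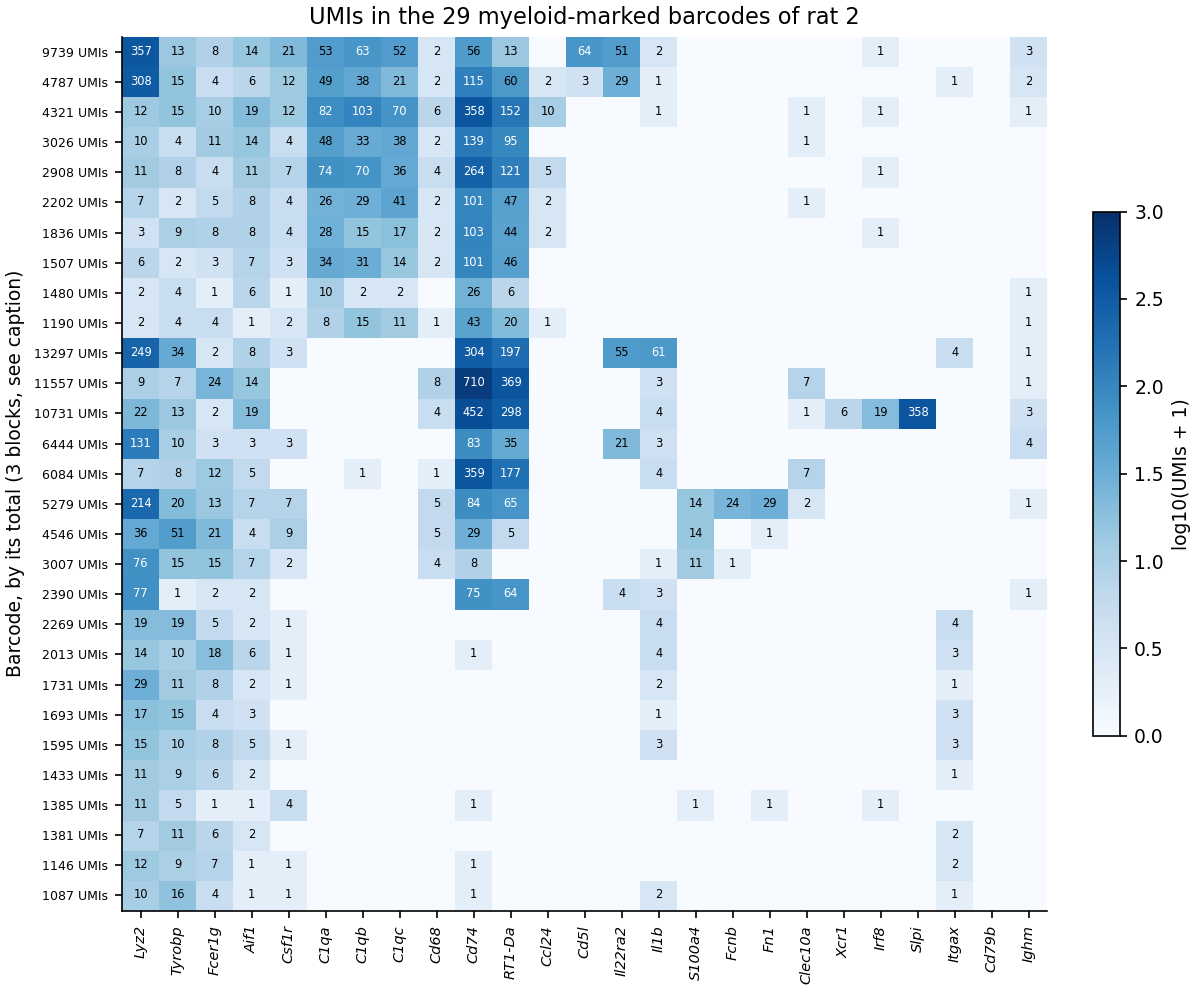
UMIs (colour, log10 of UMIs + 1) of 25 genes in each of the 29 myeloid-marked barcodes of rat 2, labelled by total UMIs. They are grouped as C1q-positive (10), C1q-low and Cd74-positive (9), and C1q-low and Cd74-low (10). Lyz2 and Tyrobp ran through all 3 groups. The C1q genes and Cd74 set the groups, so their pattern is a description. RT1-Da was at 0 in the C1q-low and Cd74-low group.

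Against T/NK-marked members, 89 of 1535 genes compared were called higher in myeloid-marked barcodes (5.8%) and 51 lower (3.32%), at a median log2 ratio of 0.01. MHC class II genes were called higher in 5 of 7 (median log2 ratio 3.0), macrophage genes in 7 of 15 (1.57) and monocyte and neutrophil genes in 3 of 3 (3.97). Lyz2 was 53.3-fold higher (37.4 to 78.7), Tmem176a gave 91 UMIs against 2, Ms4a7 66 against 0, at least 21.6-fold, and Ptafr, the receptor of platelet-activating factor, 28 against 1. Tyrobp and Fcer1g, shared by macrophages and natural killer cells, were not among the calls. Higher in T/NK-marked barcodes were Gzmbl3, a granzyme B-like protease, at least 51.7-fold with 152 UMIs in 12 barcodes, Mcpt10 (32.6-fold, 8.67 to 275), Gimap7 (24 UMIs against 1) and Ifi27l2b (20.9-fold, 9.33 to 58.1). The hemoglobin genes were higher there too, Hbb 385-fold and all 4 erythroid genes compared, at a median of -8.09. Of 10 early response genes 3 were called higher in myeloid-marked barcodes, at a median of 1.31. The common leukocyte genes lay at a median of 0.13 with no call of 16, and the epithelial genes at 0.29 with none of 8.

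The T/NK-marked barcodes, which held no UMI of Cd3e, Cd3g, Cd3d or Ccl5 by the rule, fell into at least 3 kinds when read by gene, again after the values were seen. In rat 2, 6 of 23 held 4 or more Gzma UMIs. These carried 7 to 89 UMIs of Gzma, a granzyme of cytotoxic lymphocytes, with 54 UMIs of Gzmb in 5, 32 of Nkg7 in 4, 11 of the pore-forming perforin gene Prf1 and 63 of Mcpt10 in 5. Cd8a was at 0 in all 6, whereas T-cell barcodes of rat 2 held 5447 Cd8a UMIs. The level of Cd7 was 0.350-fold that of T-cell barcodes. Gzma stood at 1.53-fold, which is a description, since Gzma chose the 6 but not the T-cell barcodes. In rat 1, 2 of 7 belonged here, with 25 and 4 Gzma UMIs. Eomes and Tbx21, factors of natural killer and innate lymphoid cells, were at 0 in the T/NK-marked barcodes of rat 2. Klrd1, a natural killer receptor gene, was at 0 in the 6 Gzma-rich barcodes of rat 2. Klrd1 gave 9 UMIs in 3 of the 14 that had under 4 Gzma UMIs and no Siglech or Kdr. In T-cell barcodes of rat 2 Eomes was at 0 too, and Tbx21 and Klrd1 measured 48.0 and 52.2 CPM. For Tbx21 and Klrd1, 0 UMIs in the 6 leave up to 123 CPM within the interval, above both levels.

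A small group in both rats was T/NK-marked by the list but led by other genes. In rat 2, 3 barcodes of 5345 to 9554 UMIs held 7, 9 and 15 UMIs of Siglech and 4, 9 and 10 of Kdr, and in rat 1, 2 barcodes of 4716 and 3913 UMIs held 4 and 2 UMIs of Kdr and 2 and 0 of Siglech. Siglech and Kdr chose this group, so their counts are a description. Siglech, a lectin of plasmacytoid dendritic cells, gave 31 UMIs in these 3 and 29 in the 1197 T-cell barcodes. The 3 also carried Irf8 (12 to 23 UMIs), Tcf4 (5 in each), Bst2 (7 to 12), Pld4 (6 to 12) and Spib (5 in all), genes known from the same cell type. Cd74 gave 66 to 88 UMIs, AABR07060872.1 19 to 26, and Tyrobp 37 to 47. In rat 1 Tyrobp gave 40 and 44 UMIs and Cd74 18 and 33. Their place in the T/NK-marked class rested on Cd7 (7 to 17 UMIs in rat 2 and 4 and 15 in rat 1), while Gzma, Nkg7, Lck and Cd8a were at 0 in the 3 of rat 2. The class name therefore does not describe them. Kdr encodes a VEGF receptor known from endothelium.

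**Figure D5:**
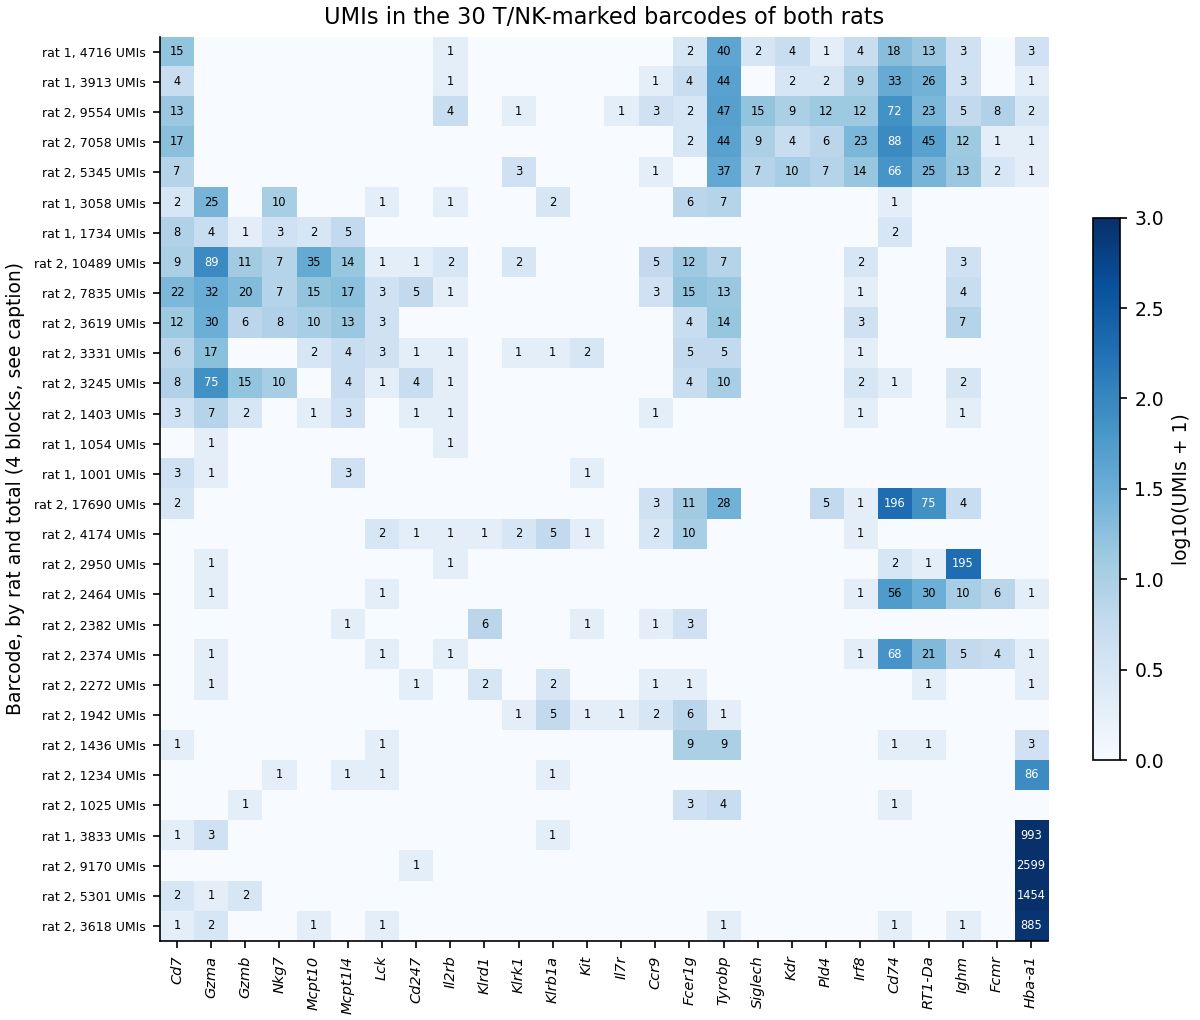
UMIs (colour, log10 of UMIs + 1) of selected genes in the 30 T/NK-marked barcodes of both rats, labelled by rat and total UMIs and grouped by Siglech or Kdr (5), Gzma of at least 4 UMIs (8), others (13) and over 20% hemoglobin (4). Cd7 was found in both the Siglech or Kdr and the Gzma groups, while Gzma was at 0 in the 3 Siglech barcodes of rat 2, which held 66 to 88 Cd74 UMIs.

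The unmarked members of rat 2 could be read from genes outside the lists. Of the 18, 6 had 49.4 to 57.2% hemoglobin UMIs, 148 to 279 genes and exactly 1 Ptprc UMI each, with 0 UMIs of Cd74, Ighm and Lyz2. Of the other 12, 8 held Cd74 UMIs (10 to 63) and Ighm UMIs (1 to 10), and 7 of these held Fcmr. A further 3 held 14 to 34 Lyz2 UMIs with 13 to 18 of Tyrobp and 0 of Cd74, much like the Cd74-low myeloid-marked barcodes. The last held none of these genes. In rat 1, 3 of 5 unmarked members had 48.7 to 58.5% hemoglobin, and the other 2 held no UMI of Cd74, Ighm, Fcmr or Lyz2. Counting members with at most 20% hemoglobin alone, chosen after seeing the data, 136 of 198 in rat 2 were B-marked (68.7%), 29 myeloid-marked (14.6%) and 12 unmarked (6.06%).

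AABR07034739.1 was another unnamed gene found in most B-marked barcodes. It gave 1109 UMIs in 120 of the 138 B-marked barcodes (2364 CPM, 2227 to 2507) and 0 UMIs in the 29 myeloid-marked ones, at least 88.3-fold higher. In the 3 Jchain-rich barcodes it gave 264 UMIs (2881 CPM), and in the other 135 it gave 845 (2238 CPM), whereas AABR07060872.1 gave 64015 and 2910 UMIs in the same groups. With Ighm and AABR07060872.1 left out of the totals, AABR07034739.1 was 7.79-fold higher in the 3 (6.76 to 8.96), instead of 1.29-fold (1.12 to 1.48). In T/NK-marked barcodes it gave 160 UMIs in 6, a B-marked ratio of 1.62 (1.37 to 1.93). That ratio is below the 4-fold rule. Which transcript either identifier stands for was not analysed here.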

How the data were processed

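Per the file headers, the authors deposited 1 filtered matrix of UMI counts for each rat. The matrix of rat 1 came from release 3.1.0 of Cell Ranger and that of rat 2 from release 5.0.1, on the rn6 build that the submitters' processing notes name, whereas the study's methods name 1 release. Its epithelial analysis set clusters with immune or blood markers aside, so its cell filters were not applied here. The counts were used as deposited, with rows that share a symbol summed (32883 genes, 28914 symbols). Genes with no row of that symbol, such as Cd79a, Igkc, Igha, Trac and Muc2, were not analysed here. The members, the marker lists (392 genes, 27 with no row) and the subgroups were chosen with earlier results of these data known.

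Members were sorted by summed UMIs over 3 lists (4 of 5 B, 14 of 14 myeloid and 19 of 23 T/NK genes had a row). Within the same depth and mitochondrial limits, T-cell barcodes held Ptprc, at least 2 UMIs of Cd3e, Cd3g and Cd3d and at most 10 of Epcam and the keratins, and epithelial barcodes held over 10 of the latter and no Ptprc. UMIs were summed per rat and class, as cells are not replicates. No doublet caller was run, and members over 20000 UMIs were left out as an alternative. Shares of barcodes with a UMI were thinned to 1000 UMIs. A quasi-likelihood test over both rats had been planned for the 3 comparisons of classes but was not run, since rat 1 held 2 B-marked, 0 myeloid-marked and 7 T/NK-marked barcodes, below the minimum of 10. It was replaced by a rule of size in rat 2, with a CPM ratio of at least 4 and at least 20 UMIs in both classes together. Ratios have exact conditional intervals (95%), and a class at 0 was set to 3 UMIs. Named genes were the members of the lists, the 10 genes furthest apart in each direction with at least 10 UMIs in the higher class, leaving out sorting genes, rule genes, mitochondrial and Y-linked genes and unnamed identifiers, and the 15 highest over epithelial barcodes. The text names those of them that the description needs. Subgroups of a class, 2 unnamed identifiers and their genes were singled out after their values were seen. The scripts were tested on simulated counts. Alternatives changed the limits on depth, mitochondrial share, Ptprc, epithelial and list UMIs, the filter on low counts, the weight of barcodes and the genes in the totals. Python 3.11.15, numpy 2.4.6, scipy 1.17.1, pandas 2.3.3 and matplotlib 3.10.9 were used. Some measured genes are not reported here.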

Additional observations from a re-analysis of the deposited data

How the results depend on the processing

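Depth set most of the limits. With over 5000 UMIs, 1 member of rat 1 and 27 of rat 2 were left. The 1 of rat 1 was unmarked (B-marked and T/NK-marked 0%, unmarked 100%), and in rat 2 the shares were 37.0% B-marked, 25.9% myeloid-marked and 29.6% T/NK-marked. Genes called were then 33 for B-marked over myeloid-marked, 21 for B-marked over T/NK-marked, 58 for myeloid-marked over T/NK-marked and 32 for the reverse. Over 2000 UMIs left 9 members of rat 1, and 2 or more Ptprc UMIs left 4, all T/NK-marked (100%, with B-marked and unmarked at 0%). The unmarked share of rat 2 was 4.64% with 2 or more Ptprc UMIs, 3.83% with 1 list UMI and 18.7% with 3. Without thinning, Cd79b was found in 68.4% of the members of rat 2 instead of 60.8%, and Ighm in 80.4% instead of 71.3%. Without a filter on low counts, 1333 genes were called for myeloid-marked over B-marked, 1171 for T/NK-marked over B-marked, 288 for myeloid-marked over T/NK-marked and 367 for the reverse. Equal weight for each barcode gave 339 for B-marked over myeloid-marked and 191 for B-marked over T/NK-marked. Leaving out members over 20% hemoglobin, in which 2 B-marked barcodes fall away, turned the log2 ratio of B-marked over myeloid-marked to -0.37 for Hbb, -0.16 for Hba-a1 and -0.67 for Hba-a2. The last 2 alternatives were chosen after seeing the data. The cause of the other changes was not tested beyond the fewer barcodes or more genes that each alternative brings in. The other 125 shares, levels and counts of genes stayed within their interval or within 1.5 times the value reported. For the named genes, 553 ratios kept to theirs, 68 moved beyond it and 3, the hemoglobin genes above, reversed. The tallies of 125 and 553 include the setting without replicate 1, in which no class comparison could change.

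Class comparisons rest on rat 2, so that they do not change without replicate 1. DESeq2, its size factors in edgeR, the replicate block and the fits without replicate 2 were not run. No paired analysis was possible for the comparisons with myeloid-marked barcodes because rat 1 had none. For B-marked against T/NK-marked barcodes the 2 and 7 barcodes of rat 1 would allow a blocked fit with 1 residual degree of freedom, which was left out by the minimum of 10 barcodes set for a class in a rat.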
